A study of Mus musculus with 12 samples.

Results

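The Kcnq1 imprinted domain was described through 3 of its genes, Kcnq1, Cdkn1c and Slc22a18, and the CpG islands and island shores inside the Kcnq1 span. Members were all feature rows carrying the Ensembl identifier of one of these genes, in every gene class, and each island or shore row lying wholly inside Kcnq1. This gave 17 members of the 176831 features listed in at least 1 library, namely 4 rows of Kcnq1 (promoter, 5' UTR, exon and intron), 5 of Cdkn1c (the same plus 3' UTR), 4 of Slc22a18 (as for Kcnq1), 2 islands and 2 shores. A level in all 12 libraries was present for 15 of the 17, against 133311 features overall. The Slc22a18 promoter had a level in 1 library and a shore in 11. No library held a 3' UTR row for Kcnq1 or Slc22a18.

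The levels came from RRBS (reduced representation bisulfite sequencing), in which MspI cuts DNA at CCGG and bisulfite converts unmethylated cytosines. There were 12 mouse libraries, in 6 groups of 2, all labelled C57BL6. ESCs were a female embryonic stem cell line, and pESCs were parthenogenetic stem cells, derived from activated oocytes and so holding maternal genomes only. Both were maintained in culture and, by the study's methods, came from an Actin-GFP background. E9.5 PGCs and E12.5 PGCs were primordial germ cells sorted by surface markers from female embryos at embryonic day 9.5 and 12.5. ESC-PGCLCs and pESC-PGCLCs were primordial germ cell-like cells, made by culturing the stem cells for 2 days with bFGF and Activin A into epiblast-like cells and then for 4 days with BMP4, SCF, EGF and LIF. By the study's methods PGCLCs were then sorted by surface markers. The study's legends call the replicates biological, while the labels do not say which cultures or embryos they came from, so p-values measure the spread between these libraries. Mean levels of a library, over the 133311 features with a level in all 12, lay between 21.3% and 36.5%. They were lowest in ESC replicate 2 and highest in E9.5 PGC replicate 1. Read depth per value is unknown, since the levels carry no counts. Expression was not measured in these libraries, so the cell types rest on the labels.

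The domain lies on distal chromosome 7 and is governed by one imprinting control region inside an intron of Kcnq1. This region is methylated in the egg and not in sperm, so that body cells carry a methylated maternal and an unmethylated paternal copy. On the paternal copy it serves as the promoter of Kcnq1ot1, a long noncoding RNA transcribed antisense to Kcnq1, which silences neighbouring genes in cis. Kcnq1 encodes a voltage-gated potassium channel subunit, Cdkn1c encodes the cyclin-dependent kinase inhibitor p57, and Slc22a18 encodes a membrane transporter of the solute carrier family. All 3 are maternally expressed genes of the domain. Primordial germ cells lose DNA methylation across the genome and erase imprints, including this one.

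Kcnq1 (ENSMUSG00000009545) spanned chr7:143106362-143427042 on the plus strand of mm10. Cdkn1c (ENSMUSG00000037664) lay at chr7:143458339-143461050 on the minus strand. Slc22a18 (ENSMUSG00000000154) lay at chr7:143473736-143499334 on the plus strand. One member island, called here the control region island, lay at chr7:143295405-143295824, in intron 11 of the 16-exon principal Kcnq1 transcript, 189043 bp into the gene. Its end was 725 bp from the annotated start of Kcnq1ot1 at 143296549, which is transcribed towards and across it. The other member island, the Kcnq1 start island, lay at chr7:143107029-143107765. The shore at chr7:143294312-143296312, as deposited, held the whole control region island, and its levels differed from the island's by at most 0.460 points, so the pair is a single measurement under 2 names.

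The sequences of both islands were read from GRCm38.p6 because their levels lay apart in all 12 libraries. The control region island held 41 CpGs in 420 bases, 61.4% G and C, and the Kcnq1 start island held 78 in 737 bases, 72.5% G and C. CCGG, the MspI site, occurred 3 times in the control region island and 6 times in the Kcnq1 start island. The hexamer TGCCGC, bound in its methylated form by ZFP57, a factor that keeps imprints through the early embryo, was searched on both strands. It was found 3 times in the control region island, 1 time as written and 2 times as its reverse complement, and not in the Kcnq1 start island. All 3 matches lay in the central 300 bases. Of the central 300 bases of 12547 islands of at least that length, 33.7% held this hexamer. CpGs are in capitals in the sequences, on the plus strand, 5′ to 3′.
Control region island, chr7:143295465-143295764: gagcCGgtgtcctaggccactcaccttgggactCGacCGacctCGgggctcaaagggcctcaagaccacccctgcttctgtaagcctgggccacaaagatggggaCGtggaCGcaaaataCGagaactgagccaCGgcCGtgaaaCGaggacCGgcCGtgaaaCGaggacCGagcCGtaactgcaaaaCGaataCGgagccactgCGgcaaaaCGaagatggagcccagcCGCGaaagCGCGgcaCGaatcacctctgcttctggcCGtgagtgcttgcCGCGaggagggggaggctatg
Kcnq1 start island, chr7:143107247-143107546: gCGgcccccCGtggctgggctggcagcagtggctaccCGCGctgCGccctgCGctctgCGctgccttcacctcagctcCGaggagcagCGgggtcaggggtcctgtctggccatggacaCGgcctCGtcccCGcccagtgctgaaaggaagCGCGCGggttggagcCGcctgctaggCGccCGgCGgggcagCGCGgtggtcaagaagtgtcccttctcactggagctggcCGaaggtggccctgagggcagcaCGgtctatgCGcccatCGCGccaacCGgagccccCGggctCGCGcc
The RefSeq promoter of Slc22a18 (chr7:143473539-143473838, GRCm38.p6, plus strand, 250 bases before the start and 50 from it) is shown because that gene had a promoter level in only 1 library. It held 2 CpGs and 1 CCGG, against a median of 7 CpGs over 32851 RefSeq promoters of this length, of which 52.8% held CCGG. The table of promoters matched Slc22a18 and Kcnq1ot1 of the domain's named genes, and not Kcnq1 or Cdkn1c.
Slc22a18 promoter: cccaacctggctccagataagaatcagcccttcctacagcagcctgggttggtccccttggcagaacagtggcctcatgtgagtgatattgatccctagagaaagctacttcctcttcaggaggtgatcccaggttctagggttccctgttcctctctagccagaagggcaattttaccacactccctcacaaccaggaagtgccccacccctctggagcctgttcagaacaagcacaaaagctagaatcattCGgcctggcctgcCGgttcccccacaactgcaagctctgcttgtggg

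The control region island had the largest difference between pESCs and ESCs among the members. Other members also had no overlap between these groups, a trait whose share over all features was not counted. Its methylation level was 16.5% and 31.9% in the ESC libraries and 67.5% and 74.4% in the pESC libraries. All pESC values were above all ESC values, and the ESC replicates were the farthest apart of any group at this island. ESCs averaged 24.2% ± 10.9 (SD, n = 2), and pESCs averaged 70.9% ± 4.88 (SD, n = 2), a difference of 46.7 points. On the log2 odds scale, log2((level + 0.01)/(1 − level + 0.01)), this was 2.94 ± 0.48 (SE). Over all 148012 features tested it did not pass (limma, Benjamini-Hochberg adjusted p = 0.736, unadjusted p = 0.00065). No feature did, while 2054 features reached 0.05 before adjustment. A fit of 2 libraries against 2 has little power over this many features, so an adjusted p above the threshold says little about the island. Fitting the 12 libraries together, the adjusted p was 0.022 and 70 of 133311 features were called. Without pESC replicate 1 the difference was 50.2 points with an adjusted p of 0.00324, and 742 of 148251 features were called. That fit leaves 1 pESC library, assumed to vary like the ESC libraries. Leaving out pESC replicate 2 gave an adjusted p of 0.601, ESC replicate 1 gave 0.833 and ESC replicate 2 gave 0.42. Among the 13715 islands with a level in all 12 libraries, the difference ranked 2 from the top, and 2 islands differed by 40 points or more in this direction and 0 in the other. The median island differed by -0.0157 points.

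**Figure D1:**
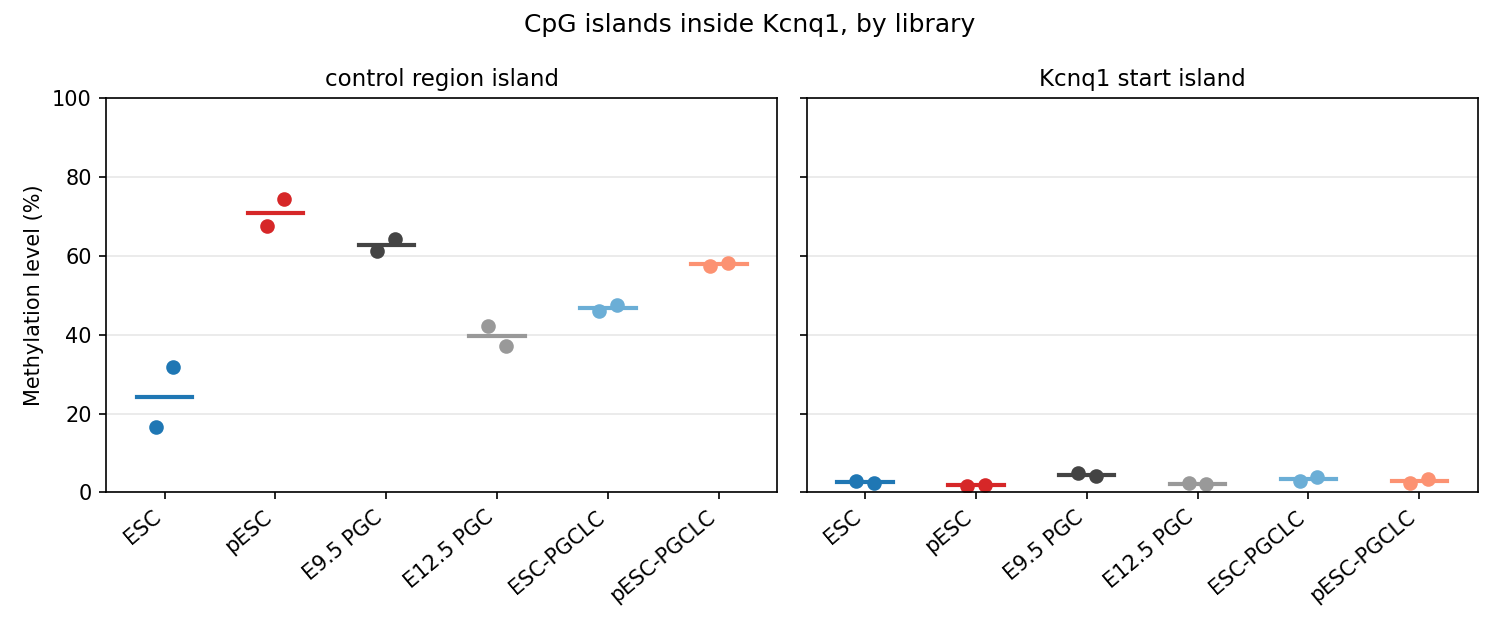
Methylation level (%) of the control region island (left) and the Kcnq1 start island (right) in each of the 12 libraries, points for libraries and bars for the mean of each group (n = 2). The control region island ranges from 16.5% to 74.4%, with pESC highest and ESC lowest, while the Kcnq1 start island stays between 1.64% and 4.87% in every library.

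In the germ cells and germ cell-like cells the control region island was 61.2% and 64.2% in E9.5 PGCs, and 42.1% and 37.2% in E12.5 PGCs. ESC-PGCLCs had 46.0% and 47.5%, and pESC-PGCLCs had 57.5% and 58.2%. No group overlapped its neighbours in this order, which ran from E9.5 PGCs through pESC-PGCLCs and ESC-PGCLCs to E12.5 PGCs. Most tested members also had no overlap between these neighbours, 14, 11 and 13 of 15 in the same order. The share over all features was not counted. The fall from E9.5 to E12.5 was 23.1 points, with a log2 odds difference of -1.33 ± 0.13 (SE) and an adjusted p of 0.000269 in the limma fit of the 8 PGC and PGCLC libraries. None of the 3 pairs of neighbours in this order passed the test. pESC-PGCLCs were 4.86 points below E9.5 PGCs (adjusted p = 0.127), and ESC-PGCLCs were 7.04 points above E12.5 PGCs (adjusted p = 0.0596). The 2 kinds of PGCLC differed by 11.2 points, higher in pESC-PGCLCs (adjusted p = 0.134, unadjusted p = 0.00313). Groups farther apart in the order did pass. ESC-PGCLCs were lower than E9.5 PGCs by 16.0 points (adjusted p = 0.0029). pESC-PGCLCs were higher than E12.5 PGCs by 18.2 points (adjusted p = 0.0158), a call lost without any one of the 4 libraries compared, with adjusted p between 0.0509 and 0.0879.

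These comparisons run beside a shift of the median feature, which fell by 0.86 on the log2 odds scale from E9.5 to E12.5. That shift was uneven over the feature classes. The median difference was -0.051 for islands, most of which were low at E9.5 (median level 2.10%), and -1.09 for intron rows. Relative to the median feature of all classes the control region island's difference was -0.47. Centring is another adjustment, by the median of each library. With the median log2 odds of each library set to 0, the control region island's E9.5 to E12.5 difference was -0.21 on the log2 odds scale (adjusted p = 0.311), and the difference of ESC-PGCLCs from E9.5 PGCs was -0.26 (adjusted p = 0.257). pESC-PGCLCs then stood 0.52 above E9.5 PGCs (adjusted p = 0.0455), the opposite direction to the raw levels. As a description, the island kept 63.3% of its E9.5 level at E12.5, and the median of 161 other islands within 10 points of its E9.5 level was 63.6%. ESC-PGCLCs stood at 74.5% of the E9.5 level, beside a median of 72.4% for those islands. pESC-PGCLCs stood at 92.3%, beside a median of 65.1% and an interquartile range of 59.7% to 69.7%, and 98.1% of those islands had a smaller share. A high share was not particular to this island. The island in Airn and Igf2r had a mean of 63.5% in E9.5 PGCs and 58.5% in pESC-PGCLCs.

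Between stem cells and PGCLCs the island's mean level differed in opposite directions in the 2 origins, and only the ESC origin passed the test. ESC-PGCLCs were higher than ESCs by 22.5 points (log2 odds 1.48 ± 0.39 SE, adjusted p = 0.037), and by 14.8 points without ESC replicate 1 or 30.2 points without ESC replicate 2. pESC-PGCLCs were 13.1 points below pESCs, without passing (log2 odds -0.82 ± 0.39 SE, adjusted p = 0.28). The groups did not overlap in either origin. Among the tested members 14 of 15 had no overlap in the ESC origin and 15 of 15 in the pESC origin. The share over all features was not counted. The interaction was -35.6 points, with an unadjusted p of 0.00364 and an adjusted p of 1. The ESC-PGCLC call was lost without either ESC-PGCLC replicate (adjusted p = 0.131 and 0.163). It was also lost without any one of the pESC or pESC-PGCLC libraries, which enter only through the spread (adjusted p = 0.0557 to 0.0691). The difference in pESC origin passed without ESC replicate 1 (adjusted p = 0.0418) or ESC replicate 2 (adjusted p = 0.0419). After centring, the ESC origin gave 0.32 (adjusted p = 0.547) and the pESC origin -1.74 (adjusted p = 0.0212).

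The 5 islands whose levels were closest to the control region island over the 12 libraries overlapped known imprinted genes. They lay in Impact, in Airn and Igf2r, in Gnas (2 islands) and in Herc3 and Nap1l5, with mean absolute differences of 5.90 to 7.32 points. Pearson r with the control region island was 0.910 to 0.930 over the 12 libraries. Islands read in the same library share its depth and its global level, which differed between libraries, so r is a description only. The island in Airn and Igf2r was 2.05% in ESCs, against 24.2% at the control region island, and 63.0% in pESCs. Means in E9.5 PGCs and pESC-PGCLCs were 53.5% and 53.8% in one Gnas island and 59.7% and 48.3% in the other. They were 59.6% and 49.9% in Impact, and 60.0% and 47.9% in Herc3 and Nap1l5. Ranking by r instead of by difference gave the same 5 islands. That ranking was limited to islands whose level ranged by at least 20 points over the 12 libraries.

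**Figure D2:**
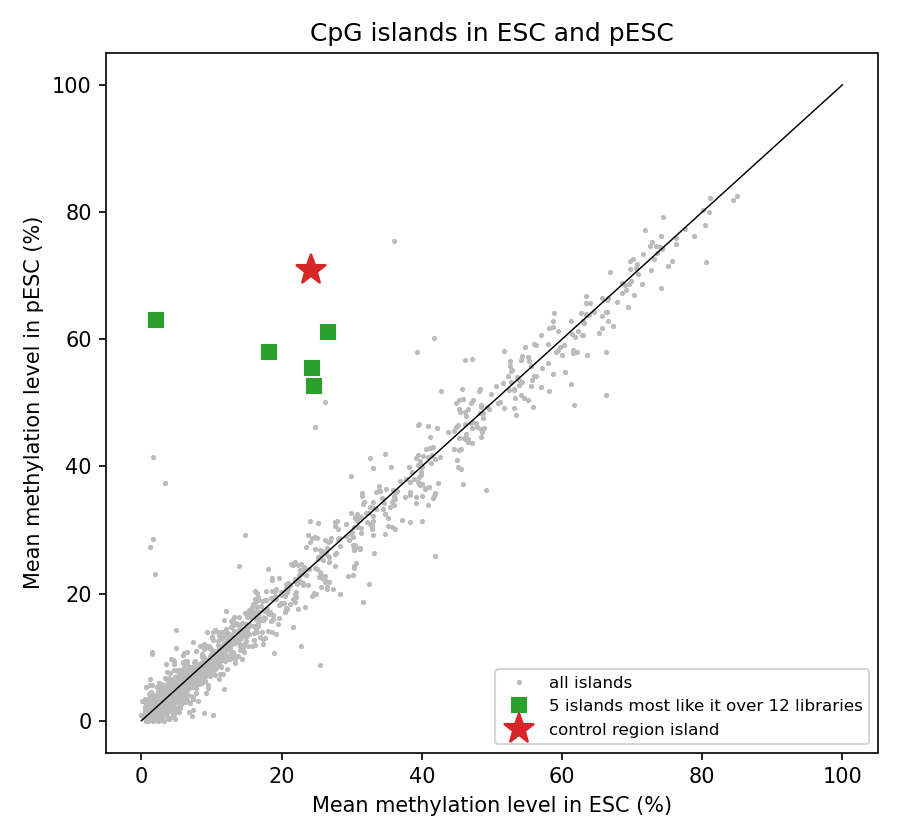
Mean methylation level (%) of each CpG island in ESC (x axis) and pESC (y axis), grey points for 13715 islands, green squares for the 5 islands most like the control region island over the 12 libraries and a red star for the control region island. The star, at 24.2% in ESC and 70.9% in pESC, lies far above the line of equal levels, along which most islands lie.

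Kcnq1 itself was unmethylated at its start and partly methylated in its introns. The Kcnq1 start island lay between 1.64% and 4.87% in all 12 libraries, and the promoter row between 2.31% and 6.43%. The 5' UTR row reached 13.4% in E9.5 PGC replicate 2, and the exon row 9.93% in the same library. In each of these 4 rows the E9.5 libraries had the highest group mean, and the difference from E12.5 was 4.71 points or less, under the 10 points required for a call. The intron row, 1 value for all introns of the gene, among them the one that holds the control region island, was 36.7% and 28.7% in ESCs, 34.8% and 34.4% in pESCs, 49.1% and 49.2% in E9.5 PGCs and 28.5% and 28.8% in E12.5 PGCs. The ESC-PGCLC libraries had 39.5% and 40.3%, the pESC-PGCLC libraries 36.4% and 36.1%. E9.5 PGCs stood above every other library. The row fell by 20.5 points from E9.5 to E12.5 (log2 odds -1.24 ± 0.087 SE, adjusted p = 9.36e-05), while after centring the difference was -0.12 on the log2 odds scale and did not pass (adjusted p = 0.368). It differed by 1.90 points between pESCs and ESCs, whose replicates overlapped, while the control region island differed by 46.7. Its call in pESC-PGCLCs against E9.5 PGCs (12.9 points lower, adjusted p = 0.000844) changed sign after centring, to 0.056 on the log2 odds scale. Relative to the median feature that difference was -0.15. On induction the row was higher in raw levels, without a call in either origin. Relative to the median feature the row stood at 0.19 from ESCs and -0.066 from pESCs on the log2 odds scale. After centring, which subtracts the median of each library, it was lower, at -0.72 from ESCs (adjusted p = 0.0167) and -0.82 from pESCs (adjusted p = 0.0162).

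The shore before the control region island, at chr7:143293403-143295403 as deposited, gave levels too scattered to compare among germ cells. It read 0% and 47.1% in the E9.5 replicates, 14.3% and 26.3% at E12.5, 0% in the ESC-PGCLC replicate listed, and 53.8% and 37.5% in pESC-PGCLCs. In the stem cells it was 26.3% and 18.2% in ESCs and 50.0% and 47.6% in pESCs, without overlap, a difference of 26.6 points that did not pass (adjusted p = 1, unadjusted p = 0.00287).

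**Figure D3:**
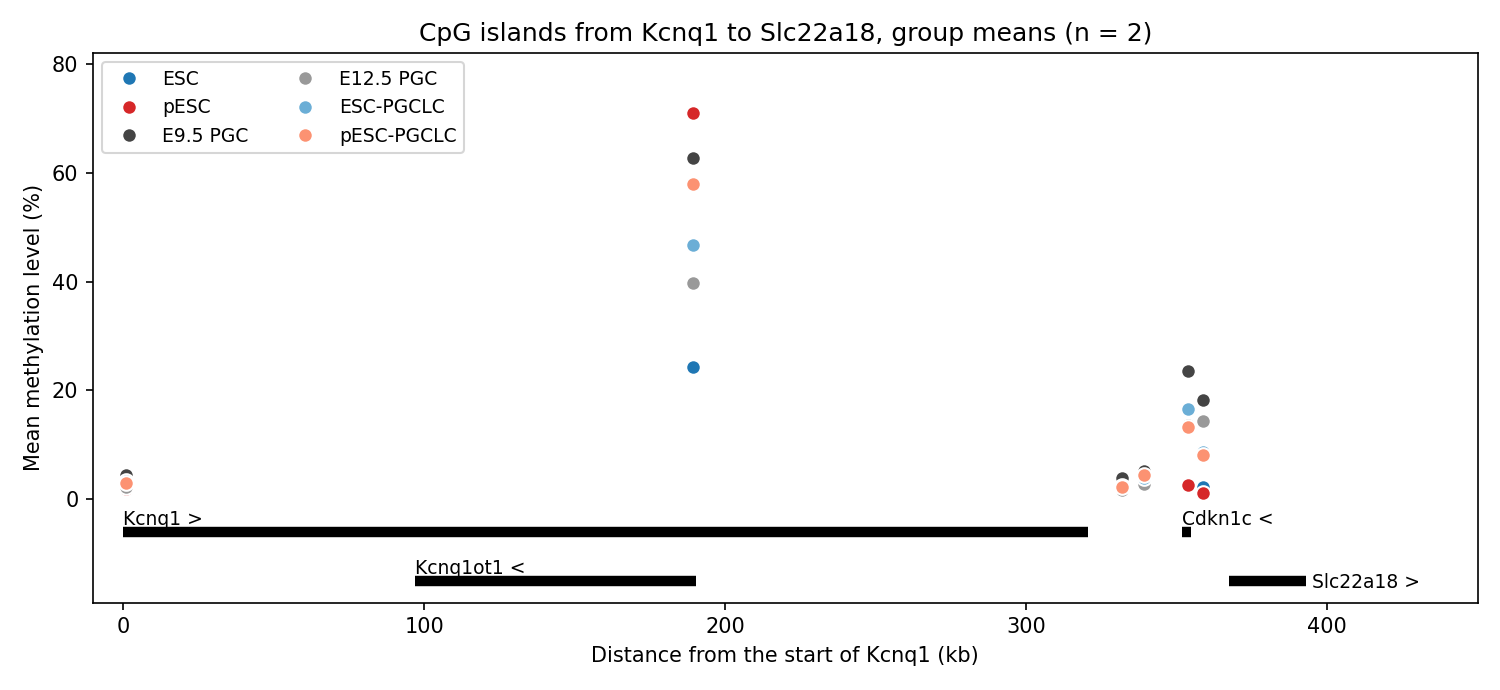
Mean methylation level (%) of the CpG islands from Kcnq1 to Slc22a18 in the 6 groups (n = 2 each), against distance from the start of Kcnq1 in kb, with gene spans as black bars and arrows for the direction of transcription. Levels spread from 24.2% to 70.9% at the control region island in the middle of Kcnq1, whereas the islands over and upstream of Cdkn1c separate the stem cells, below 3%, from the germ cells.

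The promoter, 5' UTR and intron rows of Cdkn1c were low in both stem cell groups and partly methylated in every germ cell group. Its promoter row was 3.62% and 3.43% in ESCs and 2.95% and 5.18% in pESCs. It was 27.6% and 28.1% in E9.5 PGCs, and 16.6% and 18.3% in E12.5 PGCs. ESC-PGCLCs had 20.4% and 19.7%, and pESC-PGCLCs had 18.5% and 16.3%. No germ cell library overlapped a stem cell library. The promoter was higher by 16.5 points in ESC-PGCLCs than in ESCs (log2 odds 2.49 ± 0.26 SE, adjusted p = 0.000703) and by 13.3 points in pESC-PGCLCs than in pESCs (2.11 ± 0.26 SE, adjusted p = 0.00199). It fell by 10.4 points from E9.5 to E12.5 (adjusted p = 0.00104), and fell by 9.58 points without E12.5 PGC replicate 1, which is below the size required. On the log2 odds scale that fall was close to the fall of the median feature, -0.84 ± 0.12 (SE) against -0.86. The median promoter row changed by -1.49 points. After centring on library medians the sign of the Cdkn1c promoter was opposite, 0.28 on the log2 odds scale (adjusted p = 0.0841). The rise on induction stayed after centring, at 1.32 (adjusted p = 0.00692) in the ESC origin and 1.19 (adjusted p = 0.0129) in the pESC origin.

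The other Cdkn1c rows gave higher levels in the induced cells as well. The 5' UTR row was 2.59% and 1.85% in ESCs and 1.55% and 0% in pESCs, and lay between 16.8% and 38.9% in the germ cell libraries. It was higher by 20.5 points in ESC-PGCLCs than in ESCs (adjusted p = 0.00198) and by 21.5 points in pESC-PGCLCs than in pESCs (adjusted p = 0.000826). The exon row was higher by 18.5 and 12.6 points in the same comparisons (adjusted p = 0.0026 and 0.0096), and centring ended both calls, at 0.51 and 0.43 on the log2 odds scale (adjusted p = 0.0749 and 0.133). The exon call in the pESC origin was also lost without pESC replicate 1 (adjusted p = 0.0658), pESC-PGCLC replicate 1 (0.0536) or pESC-PGCLC replicate 2 (0.0957). The intron row was higher by 11.1 points on induction from ESCs (adjusted p = 0.000826), and by 7.95 points from pESCs, short of 10 points. The 3' UTR row started higher, at 33.8% and 19.8% in ESCs and 25.3% and 21.3% in pESCs, and its differences of 13.4 and 12.5 points on induction did not pass (adjusted p = 0.124 and 0.183). It fell from 56.4% ± 3.85 (SD, n = 2) at E9.5 to 24.2% ± 4.43 (SD, n = 2) at E12.5, keeping 42.9% of its level, where 843 other 3' UTR rows of a like E9.5 level kept a median of 65.2%. Its levels were identical in all 12 libraries to those of the shore below Cdkn1c's island, so both names cover the same CpGs.

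Slc22a18 rows carried the largest differences on induction among the members in percentage points, while on the log2 odds scale the Cdkn1c 5' UTR row differed more, at 3.22 and 4.21 against 2.87 and 2.61 for the Slc22a18 5' UTR row. Its exon row was 16.5% and 16.1% in ESCs and 8.71% and 16.9% in pESCs, and then 66.6% and 66.1% in E9.5 PGCs and 39.2% and 40.7% in E12.5 PGCs. ESC-PGCLC libraries had 55.0% and 52.5%, and pESC-PGCLC libraries 43.6% and 40.8%. The ESC and pESC libraries overlapped, and every germ cell library lay above them. ESC-PGCLCs were higher than ESCs by 37.5 points (log2 odds 2.50 ± 0.33 SE, adjusted p = 0.0019), and pESC-PGCLCs higher than pESCs by 29.4 points (2.30 ± 0.33 SE, adjusted p = 0.00376). The median exon row changed by 1.96 and 0.768 points in these comparisons. The 5' UTR row was higher by 42.2 and 33.0 points (adjusted p = 0.000629 and 0.00132), and the intron row by 29.7 and 22.9 points (adjusted p = 0.00204 and 0.00462). The one promoter level listed was 12.5%, in pESC replicate 1. All 3 tested rows fell from E9.5 to E12.5, by 29.4 points in the 5' UTR row, 26.4 in the exon row and 27.8 in the intron row, with adjusted p of 8.9e-05, 9.64e-05 and 0.000408. In the exon and 5' UTR rows the fall passed after centring too, at -0.42 and -0.63 on the log2 odds scale (adjusted p = 0.0142 and 0.0034).

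**Figure D4:**
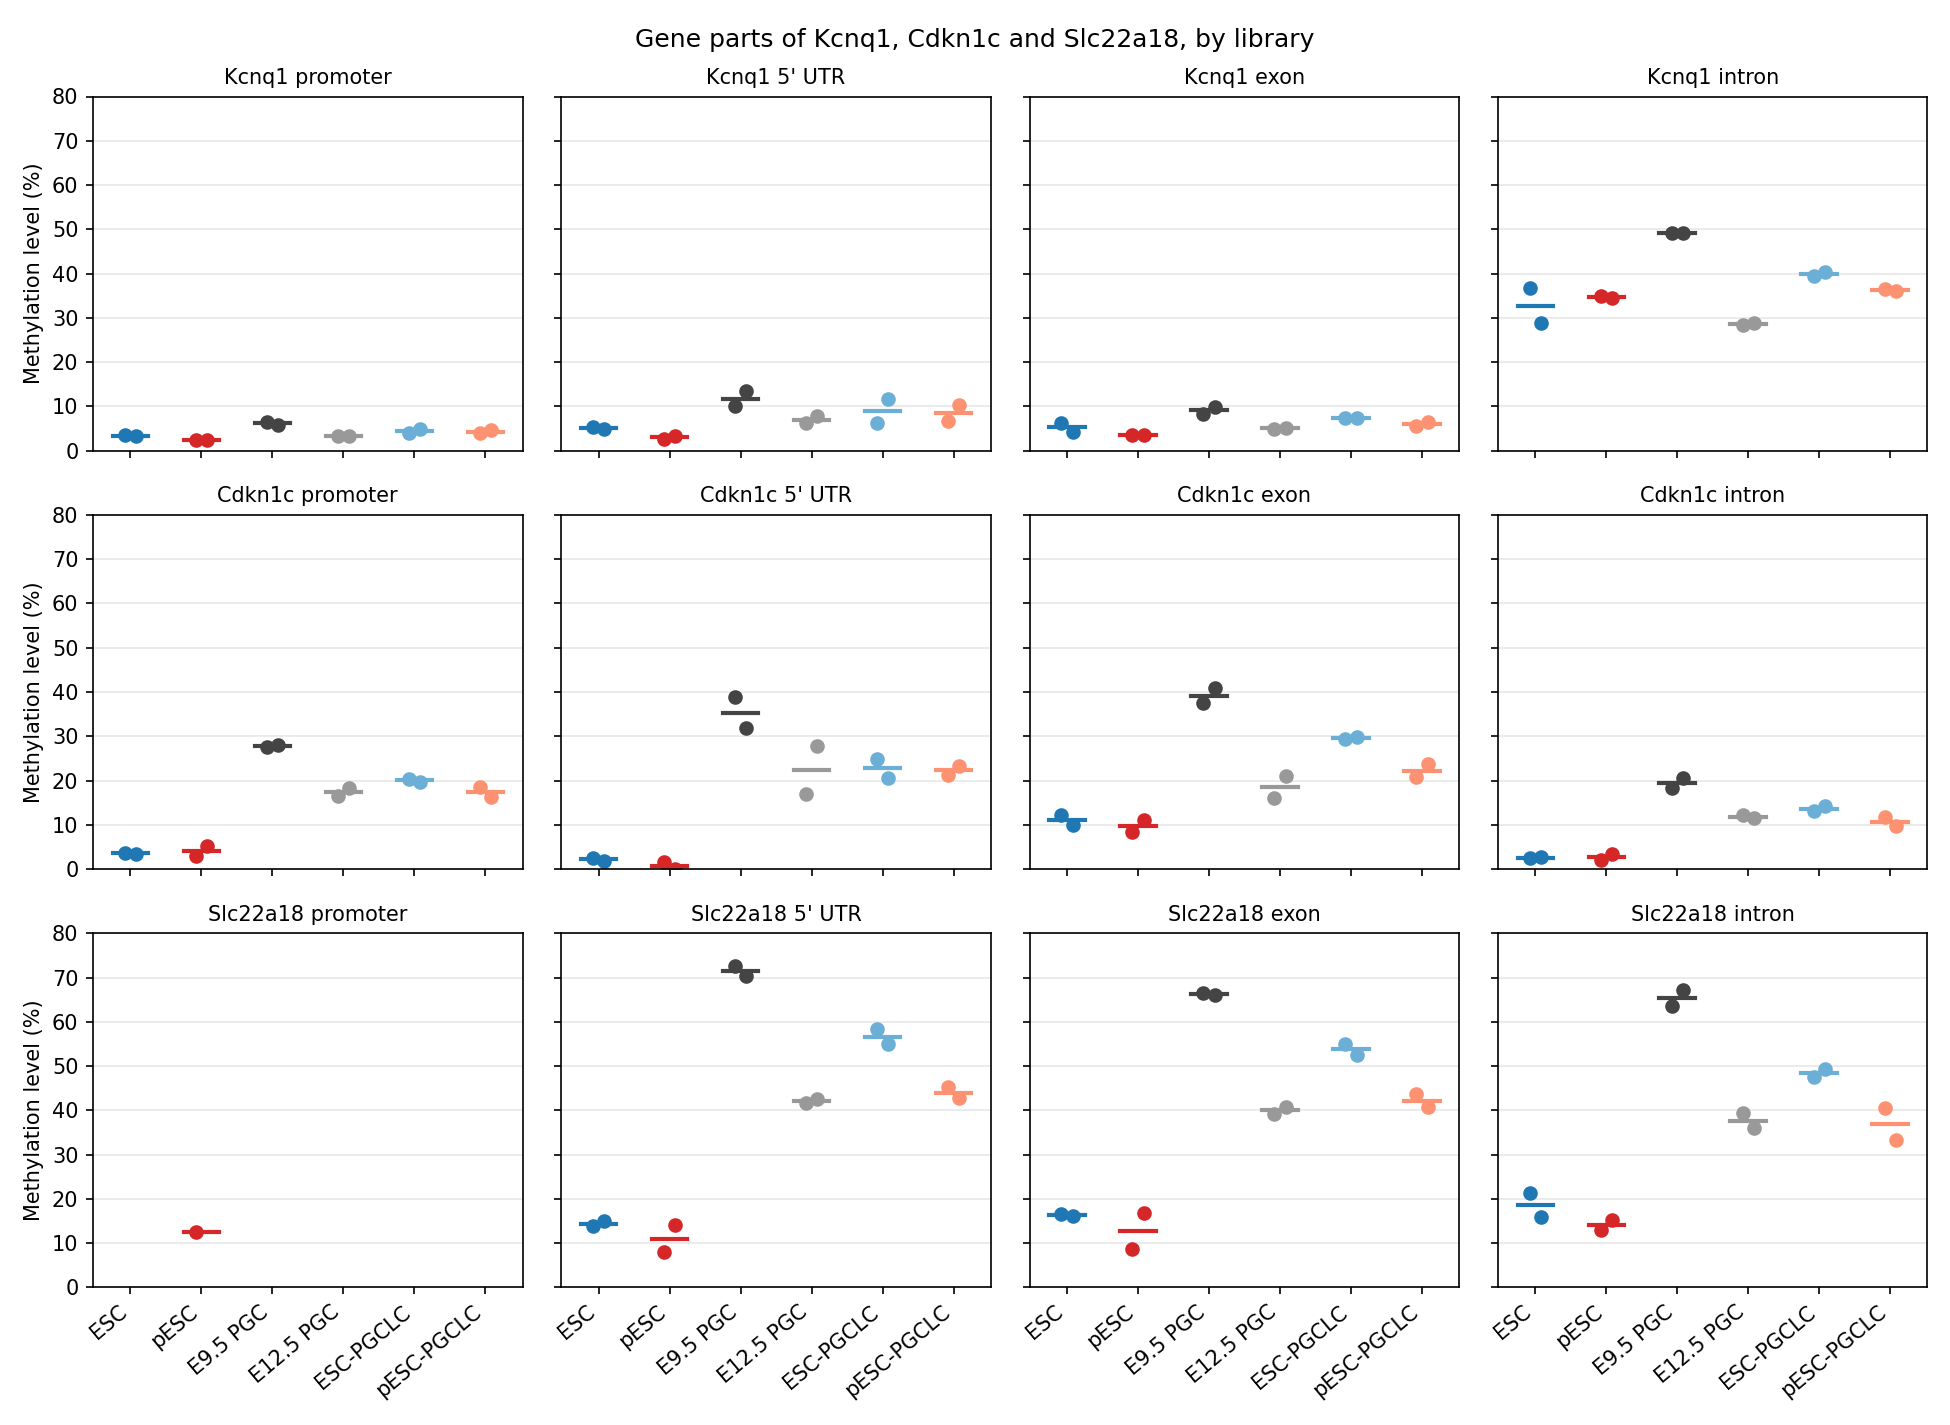
Methylation level (%) of the promoter, 5' UTR, exon and intron rows of Kcnq1 (top), Cdkn1c (middle) and Slc22a18 (bottom) in each of the 12 libraries, points for libraries and bars for group means (n = 2, except the Slc22a18 promoter, listed in 1 library). Kcnq1 promoter, 5' UTR and exon rows stay below 14% throughout, whereas Cdkn1c and Slc22a18 rows are lower in both stem cell groups than in E9.5 PGCs, where they are highest.

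The 2 kinds of PGCLC differed in opposite directions at Slc22a18 and at the control region island, without passing over all features. In pESC-PGCLCs the Slc22a18 5' UTR, exon and intron rows were 12.6, 11.5 and 11.4 points below ESC-PGCLCs (adjusted p = 0.109, 0.109 and 0.163), with no overlap between the groups, while the control region island was 11.2 points above. On untransformed levels the exon and 5' UTR rows, the control region island and its shore passed, with adjusted p of 0.0237, 0.0256, 0.0427 and 0.0439. pESC-PGCLCs and E12.5 PGCs stood close in the Slc22a18 exon row, with 43.6% and 40.8% against 39.2% and 40.7%, a difference of means of 2.26 points (log2 odds 0.13 ± 0.11 SE, adjusted p = 0.485).

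The calls among members are given beside the share of all features called in the same direction. A member was called when its adjusted p was under 0.05 and its group means differed by at least 10 points. Between pESCs and ESCs 0 of 16 members were called, and 0.0% of all features. An unadjusted p under 0.05 was reached by 3 members and by 2054 of 148012 features. From E9.5 to E12.5, 10 of 15 members were called lower, against 49.6% of all features, and the median difference was -20.5 points for members and -11.5 for all features. Against E9.5 PGCs, 6 members were lower in ESC-PGCLCs (29.6% of all features) and 7 in pESC-PGCLCs (40.2%). Against E12.5 PGCs, 6 members were higher in ESC-PGCLCs (22.2% of all features) and 3 in pESC-PGCLCs (6.81%). Between the 2 kinds of PGCLC 0 members were called, and 0.0948% of features in either direction. An unadjusted p under 0.05 was reached by 8 of 15 members and by 26558 of 137202 features. On induction 9 members were higher in ESC-PGCLCs than ESCs (13.7% of features) and 6 in pESC-PGCLCs than pESCs (8.91%), with median differences of 16.5 and 7.95 points for members and 1.26 and 0.566 for all features. The interaction called 0 members and 0.0365% of features. An unadjusted p under 0.05 was reached by 4053 of 136848 features and by 2 members, the control region island and the shore that holds it. Comparisons that involve the same group share its libraries, and rows of 1 gene share CpGs, so the members are not independent.

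Centring removes the difference between library medians, which is not the same as the median of the per-feature differences. On induction from ESCs it took the control region island from 1.48 to 0.32 on the log2 odds scale. The shift of the median feature is given here beside the counts above. On the log2 odds scale it was -0.86 from E9.5 to E12.5, -0.44 and -0.60 in ESC-PGCLCs and pESC-PGCLCs against E9.5, 0.34 and 0.20 in the same groups against E12.5, -0.14 between the 2 kinds of PGCLC, and 0.26 and 0.17 on induction. With each library centred on its median, calls among members went from 10 to 3 for E12.5 against E9.5, from 6 to 0 and from 7 to 3 for the PGCLCs against E9.5, from 6 and 3 to 0 against E12.5, and from 9 to 6 for ESC-PGCLCs against ESCs. For pESC-PGCLCs against pESCs 7 members were called, 5 higher and 2 lower, the latter being the control region island and the shore that holds it. Among all features called, the share that was higher went from 93.8% to 72.6% on induction from ESCs and from 92.3% to 71.1% from pESCs. For pESC-PGCLCs against E12.5 PGCs it went from 96.0% to 76.1%, and between the 2 kinds of PGCLC from 46.9% to 70.5%.

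**Figure D5:**
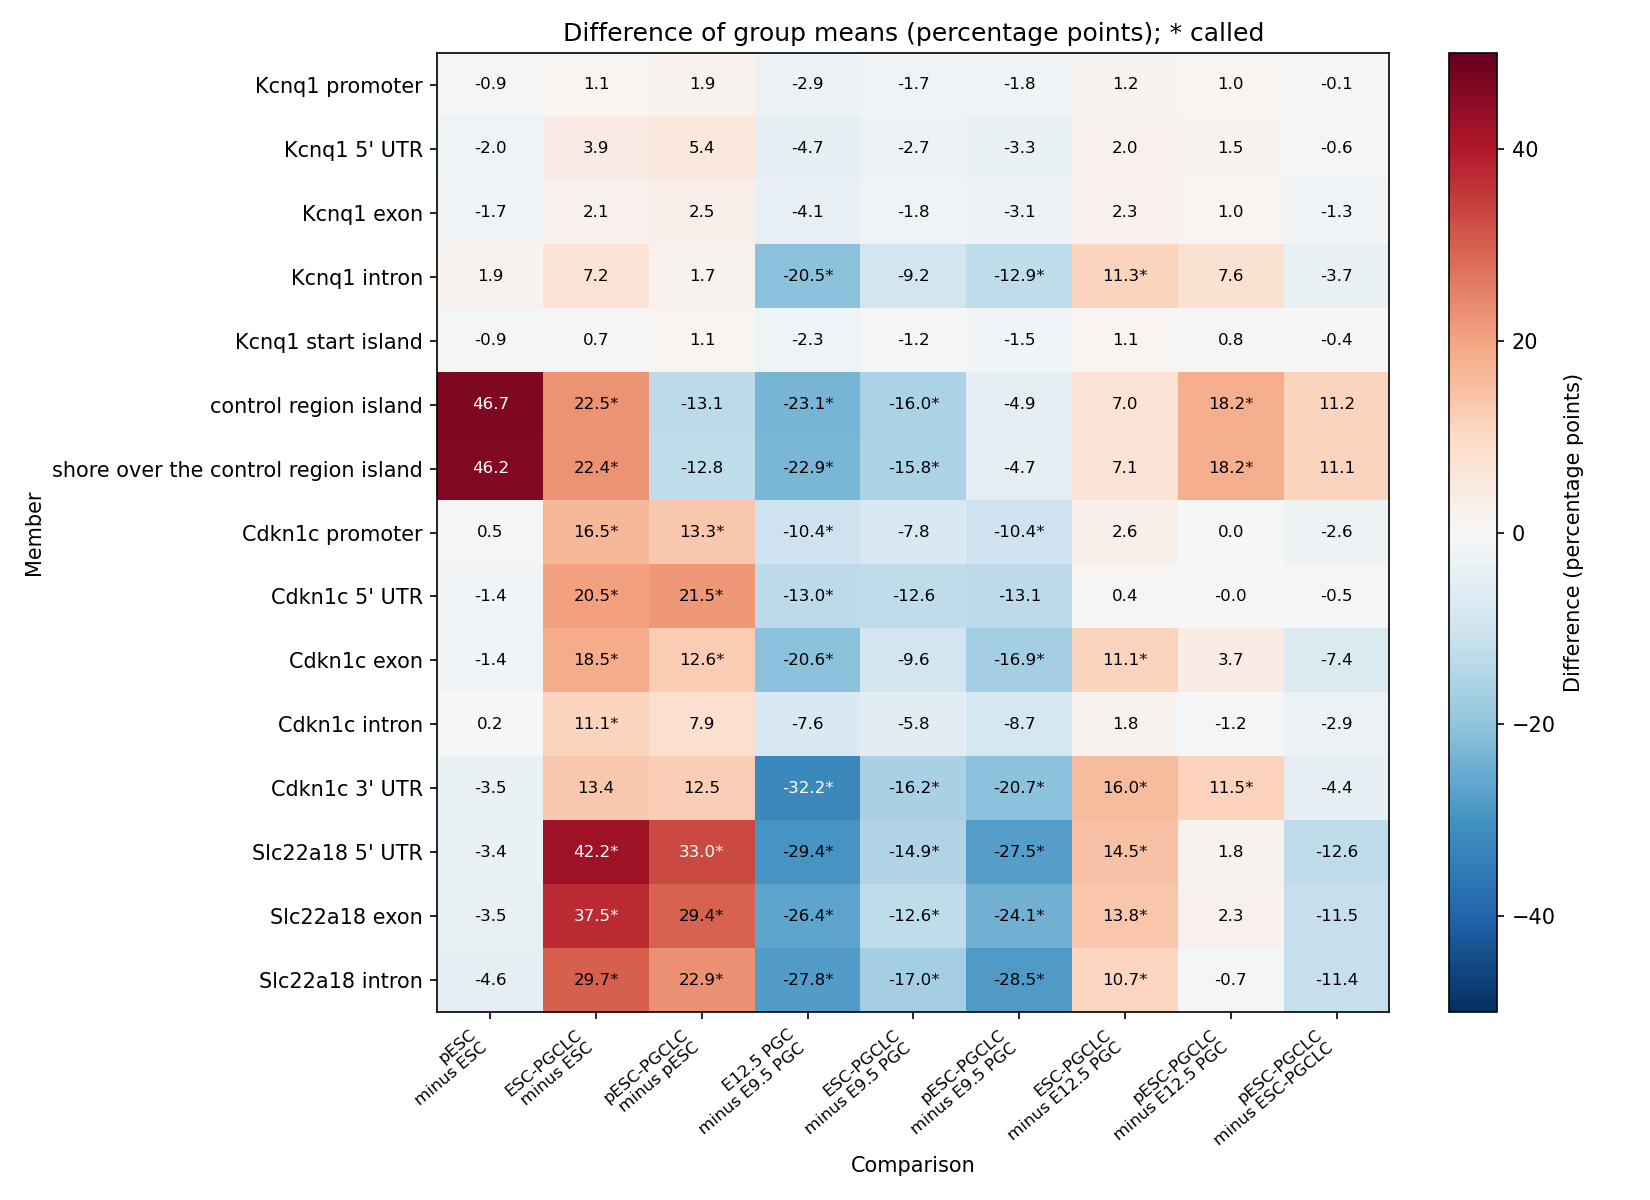
Difference of group means in percentage points for the 15 members with a level in all 12 libraries (rows) in 9 comparisons (columns), red for higher and blue for lower in the first group named, with an asterisk where the member was called. The control region island carries the largest difference between pESC and ESC, 46.7 points, and Slc22a18 rows carry the largest on induction in points, up to 42.2.

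The other genes of the domain, a list of 17 from Th to Dhcr7, had 57 to 60 rows tested in each comparison. Some rows repeat a measurement, such as the exon and 3' UTR rows of Tspan32 and of Tnfrsf26, whose levels were identical in all 12 libraries. The counts of rows are therefore not counts of independent measurements. From E9.5 to E12.5, 26 of 57 rows in 12 genes were called lower and 0 higher, beside 49.6% of all features called lower. On induction 11 of 58 rows were called higher from ESCs (13.7% of all features) and 2 of 58 from pESCs (8.91%), and 0 were called lower. Kcnq1ot1, whose span holds the control region island, had an exon row close to the island, at 25.2% ± 9.87 in ESCs, 65.1% ± 7.35 in pESCs and 61.6% ± 2.53 in E9.5 PGCs (SD, n = 2 each), and fell by 22.1 points to E12.5 (adjusted p = 0.000299). Ascl2, a transcription factor gene of the placenta, and Phlda2, a growth-restraining gene of the placenta, were not called in any comparison. The Ascl2 promoter lay between 1.97% and 6.44%, and the Phlda2 promoter between 1.49% and 4.51%. Over all comparisons and with 1 row per gene, the 5 widest called differences in the rest were in the 3' UTR rows of Tnfrsf23 (40.7 points lower at E12.5 than at E9.5, from 97.8%), Tssc4 (35.0), Nadsyn1 (27.5) and Osbpl5 (25.4), and in the intron row of Tspan32. The Tspan32 intron row, from a tetraspanin gene, was higher by 34.2 points in ESC-PGCLCs than in ESCs (adjusted p = 0.0017).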

How the data were processed

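The authors deposited, 1 file per RRBS library, which holds for each annotated feature a fraction from 0 to 1 (methylated over all CG calls), printed here as percent. By the submitters' processing notes reads were aligned with Bismark 0.16.3 and Bowtie2 to mm10. The coverage minimum and the promoter definition are not given in the sources used here. Island starts, deposited counting from 0, are printed counting from 1 (all 14559 islands then begin with CG). Sequences came from GRCm38.p6 and RefSeq, gene spans from GENCODE M21.

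Levels were compared on log2((level + 0.01)/(1 − level + 0.01)) with limma 3.58.1 (lmFit, eBayes) in R 4.3.3, two-sided, with Benjamini-Hochberg adjustment over all features measured in each library of the fit. The 3 fits held ESCs and pESCs, the PGC and PGCLC groups, and the stem cells with the PGCLCs. The scripts were tested on simulated data. In the ESC and pESC fit, 0 of 200 simulated shifts of 2 log2 odds were recovered, and 113 of 200 shifts of 4. A first requirement on the number recovered was missed there. Checks of the estimates, null p-values and false calls replaced it. Read counts were not analysed here, so the count test planned for them was not used and no intervals or floors were computed. Named were all members, a list of domain genes (counts, with Kcnq1ot1, Phlda2, Ascl2 and the 5 others with the largest called difference) and the 5 islands most alike. Members and lists were chosen with earlier results of these data known. The alternatives were other offsets, untransformed or centred levels, 1 fit of all libraries, a replicate block, missing levels allowed, a trended robust prior, other size thresholds and leaving out each library.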

Additional observations from a re-analysis of the deposited data

Results flagged for a closer look

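The control region island differed in opposite directions between PGCLCs and stem cells of the 2 origins, in the pESC origin without passing. Every ESC-PGCLC library lay above every ESC library and every pESC-PGCLC library below every pESC library. Such non-overlap was common among the tested members, in 14 of 15 for the ESC origin and 15 of 15 for the pESC origin. Its share over all features was not counted. The difference between the changes was -35.6 points (log2 odds -2.30 ± 0.54 SE), with an unadjusted p of 0.00364 and, in the limma fit over all features, an adjusted p of 1. The shore that holds the island gave -35.1 points and covers the same CpGs.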

How the results depend on the processing

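Leaving out single libraries gave 0 to 2 members called for pESCs against ESCs (2 without pESC replicate 1) and 0 to 2 for pESC-PGCLCs against E12.5 PGCs (0 without either replicate of either group), where 3 were called in full. Centring each library on its median gave 3 for E12.5 against E9.5, 0 for ESC-PGCLCs and 3 for pESC-PGCLCs against E9.5, and 0 for both against E12.5. Among called members and the control region island it turned 5 directions, on the log2 odds scale, to 0.28 for the Cdkn1c promoter and 0.18 for the Cdkn1c 5' UTR from E9.5 to E12.5, to 0.52 for the control region island and 0.056 for the Kcnq1 intron in pESC-PGCLCs against E9.5, and to -0.047 for the control region island in ESC-PGCLCs against E12.5. Of 98 other member results 50 changed sign, 6 of them with an adjusted p under 0.05 afterwards, among them the Kcnq1 start island, exon, intron and promoter in ESC-PGCLCs against ESCs (-0.93, -0.69, -0.72 and -0.83). Relative to the median feature these rows stood, in the same order, at -0.020, 0.22, 0.19 and 0.078. In 1 fit of 12 libraries 2 members were called for pESCs against ESCs, 2 for ESC-PGCLCs against E9.5, 2 against E12.5, and 0 for pESC-PGCLCs against E12.5. A threshold of 20 points gave 0 and 4 for ESC-PGCLCs and pESC-PGCLCs against E9.5 and 0 for both against E12.5, and no size threshold gave 11 for ESC-PGCLCs against E9.5. Between the 2 kinds of PGCLC an offset of 0.1 called 2 and untransformed levels 4. The cause of these changes was not tested, apart from the fewer features or other size that an alternative itself sets.

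Of 47 member calls, 17 held after centring, 35 in 1 fit of 12 libraries, 42 with an offset of 0.001, and 47 with an offset of 0.1 or a trended robust prior. Nothing in the labels ties libraries of the same replicate number, whose deviations correlated from -0.0573 to 0.432, highest for ESC with pESC. The replicate block gave the control region island an adjusted p of 0.152 for pESC against ESC, and with it 0, 9, 6, 7, 5, 2, 0, 9, 6 and 0 members were called, in the order pESC against ESC, E12.5 against E9.5, ESC-PGCLC and pESC-PGCLC against E9.5, the same against E12.5, pESC-PGCLC against ESC-PGCLC, ESC-PGCLC against ESC, pESC-PGCLC against pESC and the interaction. Counting islands and shores that overlap the Kcnq1 span by 1 base instead of lying inside it changed the members from 17 to 18. Depth limits every level by an unknown amount.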

Other observations

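Between the end of Kcnq1 and the end of Slc22a18 lay 4 further islands, outside the members, in 2 kinds. The islands at chr7:143437812-143438545 and chr7:143445161-143446003, between Kcnq1 and Cdkn1c, stayed between 1.44% and 5.35% in all 12 libraries. The island over Cdkn1c, at chr7:143459056-143461477, had 2.59% ± 0.058 in ESCs, with 2.61% ± 0.79 for pESCs (SD, n = 2 each). E9.5 PGCs had 23.5% ± 1.37 and E12.5 PGCs had 13.7% ± 1.23, whereas the induced cells from ESCs had 16.7% ± 0.50 and those from pESCs had 13.2% ± 0.59. The island upstream of Cdkn1c, at chr7:143464851-143465272, was 1.79% and 2.68% in ESCs, 19.7% and 16.8% in E9.5 PGCs and 14.9% and 14.0% in E12.5 PGCs, and the mean was 8.75% in the PGCLCs from ESCs, 8.11% in those from pESCs. All 4 PGCLC libraries lay below every PGC library there. These values are descriptions with no test.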
